A study of Mus musculus with 2 samples.

Results

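The genes described here are 9 neurotrophic factors and receptors, found by their symbols among the 31252 gene rows of an RNAseq count table. They are the ligands Gdnf, Bdnf and Ntf3, the receptor kinases Ret, Ntrk2 and Ntrk3, the co-receptors Gfra1 and Gfra2, and the receptor Ngfr. Of the 9 genes, 8 had a mean of at least 10 counts, as did 15246 rows in all, and these are called tested genes below although no test of the groups was possible. Gdnf was the gene left out by this minimum. The table holds 2 libraries from the ventral midbrain of mice at 2 months of age, 1 labelled Ctrl and 1 labelled OE. Both genotypes carry Slc6a3-Cre, in which the dopamine transporter gene drives Cre recombinase, and OE adds the CAG-S-COUP-TFII allele, a MYC-tagged COUP-TFII that Cre switches on. The strain is labelled as incipient congenic C57BL/6. In the study's crosses, Ctrl and OE littermates also carried 1 floxed Tfam allele and a tdTomato reporter, and the sources used here do not say whether these 2 libraries came from such littermates. They also do not say whether a library is 1 mouse or a pool.

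GDNF, a survival factor for midbrain dopaminergic neurons, binds the co-receptor encoded by Gfra1, and the pair then activates the receptor tyrosine kinase RET. Gfra2 encodes the preferred co-receptor of neurturin, a related ligand that also signals through RET. The neurotrophins BDNF and neurotrophin-3 act through TrkB and TrkC, the products of Ntrk2 and Ntrk3. The p75 receptor encoded by Ngfr binds all neurotrophins and their precursors. Dopaminergic neurons of the midbrain are known for RET and GFRA1, and astrocytes make a short form of TrkB that lacks the kinase.

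Total counts were 16984336 in the Ctrl-labelled library and 21326632 in the OE-labelled library. Nr2f2, the mouse gene for COUP-TFII, had 637 counts in the Ctrl-labelled library and 377 in the OE-labelled library. Its log2 fold change, always given as OE label over Ctrl label, was -1.07 with a counting interval from -1.26 to -0.88. This is the reverse of the overexpression that the OE label names, although the allele is switched on only in dopaminergic neurons. The paper measured raised COUP-TFII RNA in isolated dopaminergic neurons, whereas these counts are of ventral midbrain tissue. Whether the labels were exchanged was not tested. Each direction given here holds for the labels as deposited and would turn if they were exchanged. With 1 library per group, no difference has a replicate check, and no p-value is given. Fold changes are of counts scaled by TMM with a pseudocount of 0.5 normalized counts, and each interval is the exact 95% Clopper-Pearson interval on the split of a gene's counts. The intervals cover counting error only and compare 2 libraries, not 2 conditions. Both libraries are labelled as dopaminergic neurons, yet the summed level of 10 oligodendrocyte markers was 20778 and 17395 CPM (counts relative to the TMM-scaled library total). The tissue thus holds other cells too.

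Ret and the co-receptor genes Gfra1 and Gfra2 had higher levels in the OE-labelled library, in the order Ret, Gfra1, Gfra2. Gfra4, another co-receptor gene of the family, was lower, as given below. Ret, the shared signalling kinase of the GDNF family, had 3666 counts or 215 CPM in the Ctrl-labelled library, and 10471 counts or 494 CPM in the OE-labelled library. The log2 fold change of Ret was 1.20 (interval 1.15 to 1.26), a 2.30-fold higher normalized count. That value lay at percentile 99.0 of the log2 fold changes of all tested genes. In bulk tissue, a difference in the number of cells of a type and a difference in RNA per cell cannot be told apart.

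Gfra1, the co-receptor that GDNF binds, had 1239 counts or 72.6 CPM in the Ctrl-labelled library, and 2381 counts or 112 CPM in the OE-labelled library. Its log2 fold change was 0.63 (interval 0.53 to 0.73), which is 1.55-fold and at percentile 96.1. The interval of Gfra1 lay wholly below that of Ret. The 250 bases before the Gfra1 start in RefSeq (build GRCm38.p6, chr19:58455399-58455648, minus strand) are shown because both this co-receptor and Ret were higher beyond counting error, and they are in lower case throughout because neither motif searched below occurs in them.
Gfra1: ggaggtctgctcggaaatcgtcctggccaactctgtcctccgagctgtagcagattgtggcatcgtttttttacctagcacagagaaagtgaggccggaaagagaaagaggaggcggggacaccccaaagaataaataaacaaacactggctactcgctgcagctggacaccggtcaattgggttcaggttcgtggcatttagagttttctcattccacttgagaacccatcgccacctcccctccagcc

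Gfra2, the neurturin co-receptor, had 574 counts or 33.6 CPM in the Ctrl-labelled library, and 827 counts or 39.0 CPM in the OE-labelled library. The log2 fold change of Gfra2 was 0.21 (interval 0.058 to 0.37), at percentile 83.3. The value sat just past the log2 threshold of 0.2 that the study's methods used for fold changes. With scaling by total counts it was 0.198, just short of that threshold.

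Of the 3 neurotrophin receptor genes, Ntrk2 and Ntrk3 differed less between the libraries, and Ngfr had too few counts to tell. Ntrk2, which encodes TrkB, had 12612 counts or 739 CPM in the Ctrl-labelled library, and 15552 counts or 733 CPM in the OE-labelled library. Its log2 fold change was -0.011 (interval -0.045 to 0.023), so at this depth a difference of more than 0.045 on the log2 scale in either direction lay outside the interval. Ntrk3, which encodes TrkC, had 1215 counts or 71.2 CPM in the Ctrl-labelled library, and 1595 counts or 75.2 CPM in the OE-labelled library. The log2 fold change of Ntrk3 was 0.079, and its interval from -0.029 to 0.19 held 0. Neither Trk receptor gene therefore differed beyond counting error. Ngfr, the p75 receptor gene, had 32 and 60 counts, or 1.87 CPM labelled Ctrl and 2.83 CPM labelled OE. Its log2 fold change was 0.59, but the interval from -0.049 to 1.26 held 0, and a difference was not detectable at this depth.

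Among the ligands, Ntf3 was the gene with a higher level in the OE-labelled library beyond counting error. Ntf3, which encodes neurotrophin-3, had 25 counts or 1.46 CPM in the Ctrl-labelled library, and 106 counts or 4.997 CPM in the OE-labelled library. The log2 fold change of Ntf3 was 1.75 (interval 1.13 to 2.46), which is 3.37-fold and at percentile 99.6. It exceeded the value of Ret, but on few counts, and the intervals of Ntf3 and Ret overlapped. The 250 bases before the Ntf3 start in RefSeq (GRCm38.p6, chr6:126166745-126166994, minus strand) are shown because Ntf3 had the largest fold change of the 9 genes, again in lower case because neither motif occurs in them.
Ntf3: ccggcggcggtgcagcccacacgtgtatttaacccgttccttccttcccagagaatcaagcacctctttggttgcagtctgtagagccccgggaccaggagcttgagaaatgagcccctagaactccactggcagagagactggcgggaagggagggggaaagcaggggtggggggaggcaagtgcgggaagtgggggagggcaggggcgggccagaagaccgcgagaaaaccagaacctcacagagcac

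Bdnf, the TrkB ligand gene, had 497 counts or 29.1 CPM in the Ctrl-labelled library, and 627 counts or 29.6 CPM in the OE-labelled library. The log2 fold change of Bdnf was 0.022 (interval -0.15 to 0.19), so ligand and receptor of the BDNF and TrkB pair both stayed within counting error. Gdnf had 8 counts in the Ctrl-labelled library and 9 in the OE-labelled library, or 0.469 and 0.424 CPM. Its log2 fold change was -0.14 with an interval from -1.69 to 1.43, too wide to tell a change in either direction. The ligand of the Ret and Gfra1 pair was thus barely detected in this tissue.

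**Figure D1:**
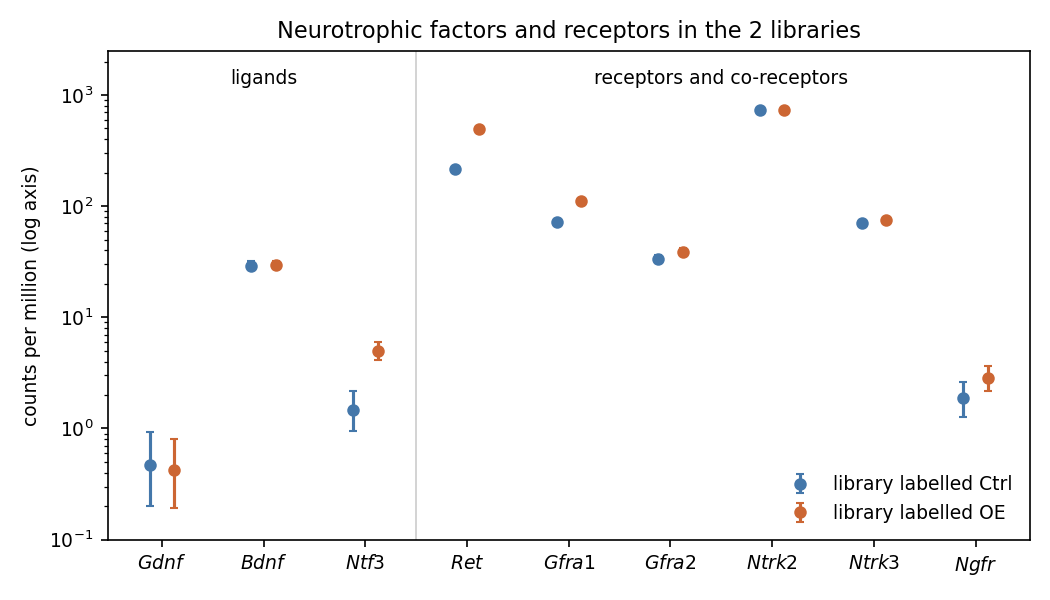
Level of each of the 9 genes in the 2 libraries, in CPM on a log axis, with bars for the 95% counting interval. Ret goes from 215 to 494 CPM and Ntf3 from 1.46 to 4.997 CPM, while the points of Ntrk2 (739 and 733 CPM) and Bdnf (29.1 and 29.6 CPM) lie close together.

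Of the 8 tested genes, 5 were higher in the OE-labelled library by more than log2 0.2, beside 17.9% of all tested genes, and 0 were lower by more than that, beside 16.6%. Those 5 were Ret, Gfra1, Gfra2, Ntf3 and Ngfr. Counting intervals lay above 0 for 4 of the 8, against 15.8% of all tested genes, and below 0 for 0 of them, against 14.4%. A log2 fold change above 1 was reached by 2 of the 8, Ret and Ntf3, and by 1.53% of all tested genes. For the log2 fold change, the 8 genes had a median of 0.40 and all tested genes 0.0046. The 9 genes were chosen with earlier results of these data known, so these shares describe them and carry no independent weight.

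**Figure D2:**
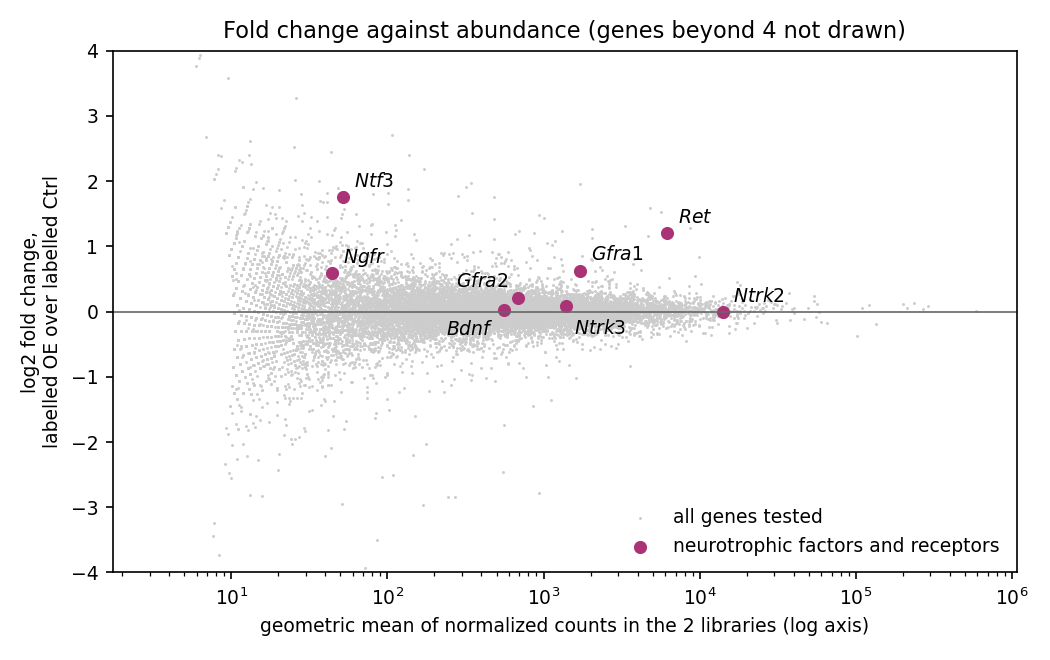
Log2 fold change (OE label over Ctrl label) against the geometric mean of normalized counts on a log axis, for all 15246 tested genes in grey and the 8 tested neurotrophic genes in colour; 28 grey points beyond a log2 fold change of 4 in either direction are not drawn. Ret, at 1.20, lies above most grey points of like abundance, whereas Ntf3 and Ngfr lie where counts are low and the grey points spread widely.

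Counts were also set against transcript length, which allows levels of different genes to be compared. Each count was divided by the median length of the gene's coding transcripts in GENCODE M21 and scaled as TPM, which gives each library the same total, over the 19512 genes with such a length. In the Ctrl-labelled library, the order of levels per length was Ntrk2 at 698, Ret at 124, Gfra2 at 65.5, Ntrk3 at 60.8, Gfra1 at 54.7, Bdnf at 21.5, Ntf3 at 3.02, Ngfr at 1.57 and Gdnf at 0.37. Counting intervals of neighbours overlapped there for Gfra2 and Ntrk3, for Ntrk3 and Gfra1, and for Ntf3 and Ngfr. In the OE-labelled library, the order was Ntrk2 at 677, Ret at 279, Gfra1 at 82.8, Gfra2 at 74.2, Ntrk3 at 62.8, Bdnf at 21.3, Ntf3 at 10.1, Ngfr at 2.31 and Gdnf at 0.33, with no overlap between neighbours. Gfra1 thus stood below Gfra2 in the Ctrl-labelled library and above it in the OE-labelled library. With the longest transcript of each gene in place of the median, Gfra1 stood above Gfra2 in both libraries (55.7 and 34.5 labelled Ctrl, 83.9 and 38.9 labelled OE). With that length, Ret at 314 also exceeded Ntrk2 at 291 in the OE-labelled library, while Ntrk2 led in the Ctrl-labelled library with 301 beside 140 for Ret. The order of these genes therefore depends on which transcript is taken, which the gene counts do not show.

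Markers of dopaminergic neurons differed in the same direction as Ret. All 14 markers had higher levels in the OE-labelled library, with a median log2 fold change of 1.35, a range from 0.79 to 2.00, no marker at 0 and a summed level of 1337 and 3194 CPM. Th, the rate-limiting enzyme of dopamine synthesis, had 2499 and 9354 counts, and its log2 fold change was 1.59. Slc6a3, the dopamine transporter, had 4955 and 15033 counts, and its log2 fold change was 1.29. Ddc, which converts L-DOPA to dopamine, had 2799 and 7790 counts, and its log2 fold change was 1.16. The most abundant markers were Aldh1a1 (0.83) and Slc6a3. The value of Ret lay above 4 of the 14 markers and that of Ntf3 above 10, whereas those of the other members lay below all 14.

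**Figure D3:**
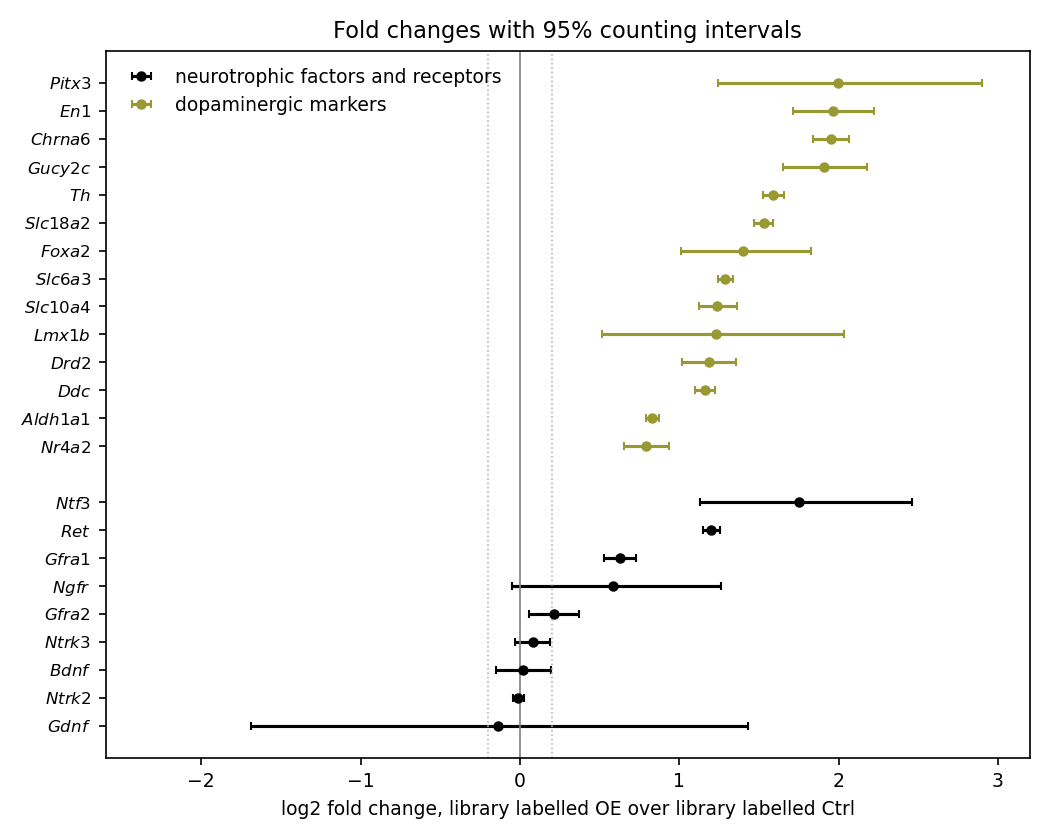
Log2 fold changes (OE label over Ctrl label) of the 9 genes and of 14 dopaminergic markers; bars are 95% counting intervals and dotted lines mark 0.2 in either direction. Ret (1.20) and Ntf3 (1.75) fall among the markers (0.79 to 2.00), Gfra1 (0.63), Ngfr (0.59) and Gfra2 (0.21) fall below them, and the interval of Gdnf is the widest of the 9 genes.

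Ratios within each library remove the scaling between libraries, and only their change between libraries is read here because they are not corrected for length. Ret had 131 counts per 100 counts of Ddc in the Ctrl-labelled library and 134 in the OE-labelled library, a log2 change of 0.037 whose interval from -0.046 to 0.12 held 0. Per 100 counts of Slc6a3, Ret had 74.0 and 69.7, a log2 change of -0.087 (interval -0.16 to -0.015). Per 100 counts of Th, Ret had 147 and 112, a log2 change of -0.39 (interval -0.47 to -0.31). Relative to Ddc, Ret thus did not differ beyond counting error, and relative to Slc6a3 and Th it was lower in the OE-labelled library. Gfra1 was lower in the OE-labelled library relative to all 3 markers, with 49.6 and 25.5 counts per 100 of Th, 25.0 and 15.8 per 100 of Slc6a3, and 44.3 and 30.6 per 100 of Ddc. The log2 changes of Gfra1 were -0.96 per Th, -0.66 per Slc6a3 and -0.53 per Ddc. For Gfra2 these values were 23.0 and 8.84, 11.6 and 5.501, and 20.5 and 10.6, with log2 changes of -1.38 per Th, -1.07 per Slc6a3 and -0.95 per Ddc. The intervals of these 6 ratios all lay below 0. The part of the dopaminergic markers in the differences of Ret, Gfra1 and Gfra2 was not tested.

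Within the receptor complex, the co-receptor genes Gfra1 and Gfra2 were lower relative to the kinase gene Ret in the OE-labelled library. Gfra1 had 33.8 counts per 100 counts of Ret in the Ctrl-labelled library and 22.7 in the OE-labelled library, a log2 change of -0.57 (interval -0.69 to -0.46). Gfra2 had 15.7 and 7.90 counts per 100 counts of Ret, a log2 change of -0.99 (interval -1.15 to -0.82). Gfra1 per 100 counts of Gfra2 was 216 and 288, a log2 change of 0.42 (interval 0.23 to 0.60), so the balance between the co-receptors also differed between the libraries. The neurotrophin receptors showed no such difference beyond counting error: Ntrk3 had 9.63 and 10.3 counts per 100 counts of Ntrk2, with a log2 change of 0.090 (interval -0.024 to 0.20). Ngfr had 0.254 and 0.386 counts per 100 counts of Ntrk2, with an interval of the log2 change from -0.039 to 1.27. For the ligands against their receptors, Bdnf had 3.94 and 4.03 counts per 100 counts of Ntrk2 (log2 change 0.033, interval -0.14 to 0.21). Ntf3 had 2.06 and 6.65 counts per 100 counts of Ntrk3 (log2 change 1.69, interval 1.04 to 2.39).

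**Figure D4:**
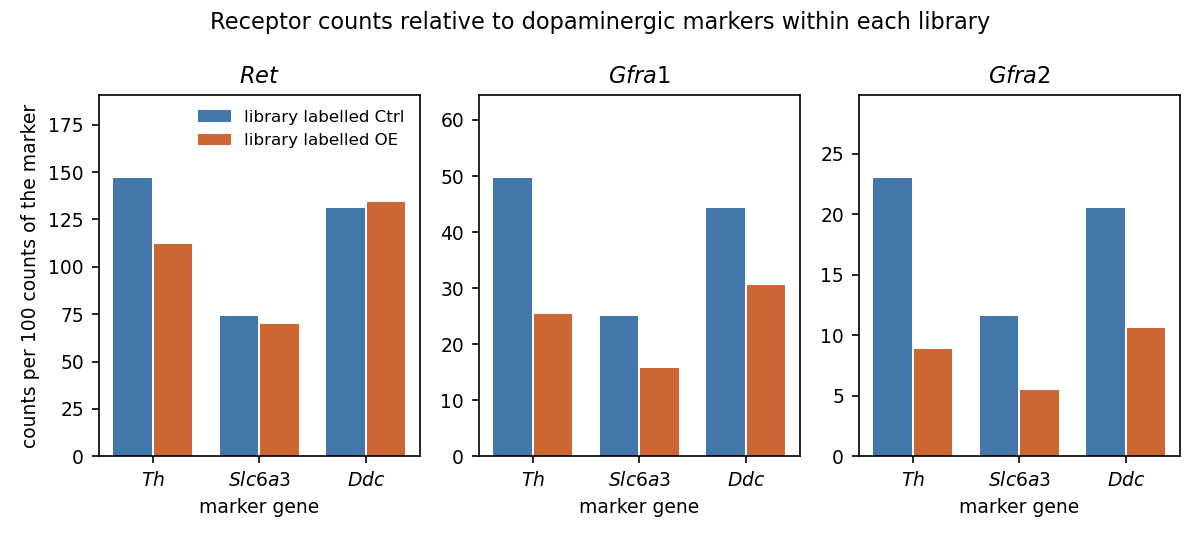
Counts of Ret, Gfra1 and Gfra2 per 100 counts of Th, Slc6a3 and Ddc within each library; each bar is 1 library, the axes start at 0 and differ between the panels, and no error is drawn. The bars of Ret per Ddc are nearly level (131 and 134), whereas those of Gfra2 per Th go from 23.0 in the Ctrl-labelled library to 8.84 in the OE-labelled library.

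Markers of other cells differed between the libraries as well. Higher and lower mean by more than log2 0.2 for these counts, which held for 17.9% and 16.6% of all tested genes. Of 12 thalamus markers, 11 were lower in the OE-labelled library by more than log2 0.2 and 1 was higher, with a median of -2.03 and a summed level of 933 and 546 CPM. Their most abundant genes were Adarb1 (log2 fold change -0.34) and Amotl1 (0.22), and Gbx2 was at 29.88 counts in the Ctrl-labelled library and 0 in the OE-labelled library, which allows up to 3 counts. Of 7 markers of motor and other cholinergic neurons, 5 were tested and all 5 were higher, with a median of 0.88 and a summed level of 7.03 and 14.6 CPM. Counting intervals lay above 0 for 4 of the 5, beside 15.8% of all tested genes, while that of Isl1 (7 and 14 counts) held 0. Slc5a7 with 54 and 124 counts and Prph with 48 and 104 were the most abundant of these, Chat had 10 and 39, and Phox2a was at 0 in both libraries. The part of these markers in the differences of Ntf3 and Ngfr was not tested. Oligodendrocyte markers were lower in 7 of 10 (summed level 20778 and 17395 CPM), vessel and meninges markers in 8 of 10 (269 and 212 CPM) and microglia markers in 4 of 10 (356 and 295 CPM), with 0 higher in each list. Astrocyte markers, of the cells that make the short TrkB, were higher in 0 of 10 and lower in 1, with a median of -0.065 and a summed level of 4815 and 4476 CPM, beside -0.011 for Ntrk2. General neuronal markers were higher in 5 of 10 and lower in 1, with a median of 0.19. Of the tested markers of hypothalamus and mammillary body, 2 of 7 were higher and 4 lower, with a median of -0.26, and of those of cerebral cortex and hippocampus, 2 of 4 were higher and 1 lower. Those 2 regional lists were low, with summed levels of 21.6 and 18.6 CPM and of 23.4 and 21.5 CPM, and Agrp (2 and 0 counts) and Otp (0 and 9 counts) were at 0 in 1 library. The hormone genes Avp, with 80.64 and 1 counts (log2 fold change -6.02, interval -11.97 to -4.13), and Oxt, with 48.36 and 2 counts (-4.57, interval -7.98 to -2.97), differed most among the tested genes of the hypothalamic list and were named after their values were seen. The most abundant genes reported of each list had log2 fold changes of -0.20 for Mbp (oligodendrocytes), -0.17 and -0.023 for Slc1a2 and Aldoc (astrocytes), and -0.57 for Csf1r (microglia). They were 0.055 and -0.020 for Snap25 and Map2 (neurons), -0.48 and -0.15 for Vtn and Rgs5 (vessels and meninges), 0.15 and 0.58 for Foxb1 and Sim1 (hypothalamus and mammillary body), and -0.56 and 0.90 for Prox1 and Neurod6 (cortex and hippocampus).

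Of the other ligand and receptor genes of the GDNF family, Gfra4 was lower by more than log2 0.2 and the rest had few counts. Gfra4, the persephin co-receptor gene, had 359 counts in the Ctrl-labelled library and 384 in the OE-labelled library, and its log2 fold change was -0.22 (interval -0.43 to -0.0045). The ligand genes were scarce: Nrtn had 4 and 13 counts, Artn 9 and 6, and Pspn 0 in both libraries, which allows up to 3 counts in each. Gfra3, Gfral and Gdf15, and the neurotrophin gene Ntf5, had at most 2 counts in a library.

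Taken as whole lists, the partners and downstream genes of these receptors showed no common shift. Of 11 sortilins and partner receptors, 3 were lower by more than log2 0.2 and 0 higher, with a median of -0.060. Among all tested genes, 16.6% were lower and 17.9% higher. The 3 were Rtn4r (-0.62, interval -0.99 to -0.26), which encodes the Nogo receptor that pairs with p75, Sort1 (-0.23), the sortilin that binds proneurotrophins, and Sorcs1 (-0.20). Counting intervals lay below 0 for 5 of the 11 and above 0 for 4. The sortilin genes Sorl1 (-0.19) and Sorcs2 (-0.12) also had intervals below 0, while that of Sorcs3 (0.12) held 0. The most abundant, Maged1 (0.038) and Ncam1 (0.070), an alternative GDNF receptor, differed little, and Ngfrap1, a p75-associated protein gene, had the highest value with 0.13. Of 21 intracellular adaptors and effectors, 3 were higher (14.3%) and 4 lower (19.0%), near the shares of all tested genes, with a median of 0.024. Sh2b2 (0.38), Shc2 (0.22) and Frs3 (0.22), adaptors of receptor tyrosine kinases, were higher, and Gab1 (-0.36), Shc3 (-0.32) and Shc4 (-0.29) were lower with intervals below 0. Dok6 was also lower (-0.53), on 28 and 24 counts and with an interval that held 0. The most abundant of this list, Kidins220 (0.030), a scaffold of Trk receptors, and the phosphatase gene Ptpn11 (0.064), stayed near 0.

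Of 9 target and feedback genes that receptor kinase signalling is known to induce, 3 were higher, 1 was lower and the median was -0.015. Among all tested genes, 17.9% were higher by more than log2 0.2 and 16.6% lower. Vgf, a secreted peptide precursor induced by neurotrophins, had 1823 and 2986 counts and a log2 fold change of 0.40 (interval 0.31 to 0.48). Etv5, a transcription factor gene downstream of RET in other tissues, had 1104 and 1795 counts and a log2 fold change of 0.39 (interval 0.28 to 0.50), and the feedback inhibitor Spry4 was at 0.23 (interval 0.0089 to 0.45). Dusp6, which encodes a phosphatase of ERK, went the other way with 429 and 382 counts and a log2 fold change of -0.48 (interval -0.68 to -0.28), and Etv1 was at -0.13. The list therefore held no common direction.

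Of 12 tested genes for other neurotrophic factors and their receptors, 4 were higher and 2 lower, with a median of 0.013, beside 17.9% and 16.6% of all tested genes. Fgf20, a growth factor gene of the nigrostriatal system, had 19 and 85 counts and a log2 fold change of 1.82 (interval 1.12 to 2.65), near that of Ntf3. Mdk (0.32) and Manf (0.24) were also higher, as was Lif (0.58) on 9 and 17 counts with an interval that held 0, and the growth factor genes Igf1 (-0.32) and Ptn (-0.31) were lower, while Il6st, a shared cytokine receptor subunit, was at -0.044. Of 8 tested enzymes that process proneurotrophins, 4 were higher and 1 lower, with a median of 0.18, beside the same shares of all tested genes. The convertase genes Pcsk5 (98 and 215 counts, 0.82, interval 0.47 to 1.18), Pcsk1 (0.36) and Furin (0.22) were higher, as was Mmp9 (0.48) on 20 and 35 counts with an interval that held 0. Pcsk2, the most abundant, was at 0.085, and Plat, the tissue plasminogen activator gene, was lower at -0.29.

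**Figure D5:**
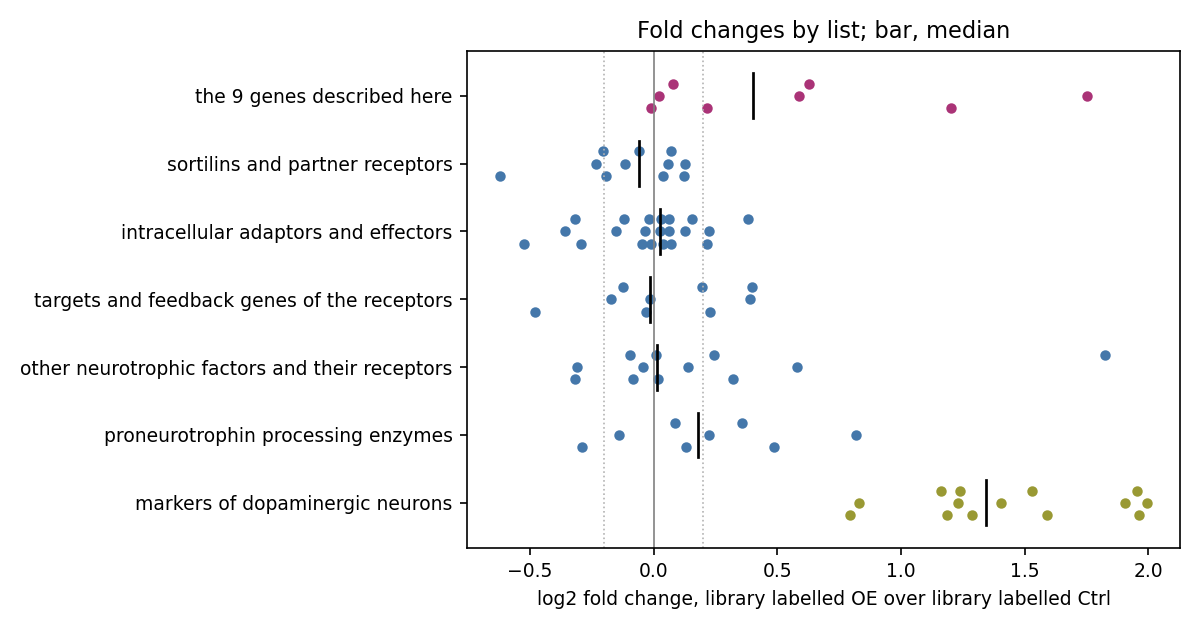
Log2 fold change (OE label over Ctrl label) of each tested gene in the 9-gene set, 5 of 6 other pathway lists and the dopaminergic markers; each point is a gene, bars are medians and dotted lines mark 0.2 in either direction. The 9-gene set has a median of 0.40 and the dopaminergic markers 1.35, while the adaptors (0.024) and targets (-0.015) centre near 0.

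The genes whose log2 fold change was nearest to that of Ret, among 11733 that averaged 100 counts or more, were Ntsr1, Nptxr, Gldn, Drd2 and Foxa1. Likeness here is the absolute difference of log2 fold change over 2 libraries, so it rests on 1 value per gene. Ntsr1, a neurotensin receptor gene, had 510 and 1461 counts (1.20), and Drd2, the dopamine autoreceptor gene, had 390 and 1103 (1.19). Foxa1, a transcription factor gene of midbrain dopaminergic neurons, had 198 and 558 (1.18), Nptxr had 86.66 and 247.47 (1.20), and Gldn had 57 and 165 (1.21). In the same set, 29 genes lay at or above the value of Ret and 16 lay within 0.1 of it.

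Start regions of the 9 genes were searched for the 6-base motif AGGTCA, a binding motif of nuclear receptors such as COUP-TFII, on either strand, and for the same motif repeated in 1 orientation with 1 base between, whose matches also count as AGGTCA. The RefSeq windows run from 250 bases before to 50 bases after a start, and 14 windows matched 6 of the 9 genes, all but Ret, Gfra2 and Ntrk3. AGGTCA occurred in 2 of the 14 windows, or 14.3%, and in 16.3% of all 32851 windows. The repeat occurred in 0 of the 14 and in 13 of all windows, or 0.0396%. The matching stretches are shown with 20 bases on each side and the motif in capitals, to give the 2 places where these letters occur. The first, from Gdnf (GRCm38.p6, chr15:7809941-7809986, plus strand), has its motif 87 bases before the first listed RefSeq start. The other, from the fourth listed start of Bdnf (chr2:109692957-109693002, plus strand), has its motif 50 bases before that start.
Gdnf: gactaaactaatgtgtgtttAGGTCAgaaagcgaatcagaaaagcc
Bdnf: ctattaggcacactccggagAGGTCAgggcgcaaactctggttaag
Both belong to ligand genes whose fold changes had intervals holding 0. A match is a description of letters, not evidence of binding.

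By GENCODE M21 on GRCm38, Ret lies at chr6:118151745-118197718 on the minus strand, Gfra1 at chr19:58235604-58455909 on the minus strand, and Gfra2 at chr14:70890120-70979838 on the plus strand. Gdnf lies at chr15:7810846-7837575 and Bdnf at chr2:109674700-109727007, both on the plus strand, and Ntf3 at chr6:126101412-126166910 on the minus strand. Ntrk2 lies at chr13:58806569-59133970 on the plus strand, Ntrk3 at chr7:78175959-78738012 and Ngfr at chr11:95568818-95587735, both on the minus strand. The first listed starts in RefSeq and the starts in GENCODE differ for Gfra1, Ntf3, Gdnf and Ngfr. The Gdnf motif shown above therefore lies farther before the GENCODE start of Gdnf than before its RefSeq start. By GENCODE, the Gfra1 stretch shown above lies wholly inside the gene and the Ntf3 stretch partly inside it. Other annotated genes overlap Gfra1 (Gm16277) and Bdnf (Gm45346) on the opposite strand, and 4 overlap each of Ntrk2 and Ntrk3. The sources used here do not say whether strand was used in the counting, so reads of such overlaps could be shared. Ntrk2 has 7 coding transcripts and Bdnf 11, and gene counts do not separate the kinase form of TrkB from the short form.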

How the data were processed

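RNA of the ventral midbrain was sequenced from 2 libraries, 1 per group. Per the study's methods, stranded libraries of polyadenylated RNA were sequenced from both ends and analysed with the sequencing company's own pipeline. The authors deposited expected counts per gene, estimated with RSEM and not scaled, and 95.4% of the values are whole numbers. The submitters' processing notes name build mm10, while the aligner, RSEM version and annotation are not given in the sources used here. Counts were scaled with TMM (edgeR 4.0.16, R 4.3.3), with factors of 1.01 (Ctrl) and 0.995 (OE), and read with Python 3.11.15. Genes averaging 10 counts or more were kept, and 0.5 normalized counts were added before taking log2 fold changes. Intervals (scipy 1.17.1) are exact Clopper-Pearson or, for ratios of genes, exact conditional odds-ratio intervals at 95%, and intervals of single levels are exact Poisson. A count of 0 allows up to 3 counts. With 1 library per group, no test between groups could be made. The interval and fold computation was tested on simulated counts. Groups came from the sample titles. Alternatives were total counts, upper-quartile and DESeq2 (1.42.0) scaling, a pseudocount of 5, thresholds of log2 0.5 and 1, no minimum or a mean of 100 counts, an interval excluding 0, and the longest transcript. Named were the 9 genes, Nr2f2, Th, Slc6a3 and Ddc, the 2 most abundant genes of each list, of marker lists also the genes at 0, of pathway lists also the 3 largest increases and decreases with an interval excluding 0, and the 5 genes nearest to Ret. Counts of 5 or fewer were named in full where their genes bear on a result. Some genes that this rule names, and the summary of 1 pathway list that holds them, are not reported here. The members and lists were chosen with earlier results of these data known.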

Additional observations from a re-analysis of the deposited data

How the results depend on the processing

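Of the 8 tested genes, 5 were higher in the OE-labelled library by more than log2 0.2. With a threshold of log2 1 the count was 2, and with a mean of at least 100 counts it was 3 of 6, because Ntf3 and Ngfr fall under that minimum. Total-count scaling left 4, since Gfra2 moved to 0.198. All 40 alternative fold changes lay within the counting interval of the main value. Across scalings and pseudocounts, Ret ranged from 1.19 to 1.21, Gfra1 from 0.61 to 0.64, Gfra2 from 0.20 to 0.23 and Ntf3 from 1.61 to 1.77. Ntrk2 ranged from -0.026 to 0.0027 and changed sign within an interval that holds 0. The longest transcript moved 10 of 18 levels per length by more than their counting interval. The 24 list medians moved by less than the SD across the genes of each list. No paired analysis was possible because there is only 1 library a group to pair. Depth limits Gdnf, Ngfr and Ntf3 most. The direction of every difference rests on the labels, and Nr2f2, counted in the whole tissue, was lower under the OE label.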
